A study of Mus musculus with 118 samples.

Results

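Layer 4 (L4) cells of the primary visual cortex (V1) that held a read of Calb2, the gene of calretinin, were compared with those that held none. The 2 arms were chosen by the Calb2 count itself. Of 44 cells with that label 42 were kept, each with at least 1500 detected genes, an Sst count above 0 and a Slc17a7 count no higher than the sum of Gad1 and Gad2. Calb2 was read in 20 of these (Calb2-positive cells) and in none of the other 22 (Calb2-negative cells). The same rule without Calb2 kept 34 of 39 L4 cells of the somatosensory cortex (S1), 17 of 19 V1 L5 cells and 16 of 16 S1 L5 cells, which make up the rest of the series.

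All cells came from adult SOM-Cre/Ai9 mice, and the labels name no treatment. In these mice the Cre recombinase is made where Sst is expressed, and Ai9 then marks the cell with the red fluorescent protein tdTomato, so a cell that expressed Sst only in the past is marked as well. Labelled neurons in slices were recorded by patch clamp, their cytosol was drawn into the pipette, and the RNA was sequenced (Patch-seq with Smart-seq2 chemistry, without molecular identifiers). The study did not sequence samples whose cDNA was too little or too short on average. The labels name no animal, so V1 L4 counts as 1 sample and no difference between the arms was tested. Recording days were read from the dates in the titles, and days may share an animal.

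Calretinin and calbindin (the product of Calb1) are EF-hand proteins that bind calcium in the cytosol, and their genes mark different groups of cortical interneurons. Somatostatin-positive (SOM+) interneurons inhibit mostly the dendrites of their targets. Many of them are Martinotti cells, which send an axon to layer 1 and of which some express Calb2, whereas a non-Martinotti group, best known from S1 L4, keeps its axon in L4. Hpse, which codes for heparanase, an enzyme that cuts heparan sulfate chains outside the cell, serves as a marker of a SOM+ type of L4.

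Both arms were present on most days. Of the 8 recording days with V1 L4 cells, days 2, 7 and 8 held at least 2 cells of each arm, with 6 and 5, 5 and 7, and 4 and 5 Calb2-positive and Calb2-negative cells. The dates fell into a first series (11 and 10 cells) and a second series (9 and 12 cells). Total counts ran from 396672 to 2728068 in Calb2-positive cells (median 1345996) and from 320392 to 2978619 in Calb2-negative cells (median 894738). Detected genes averaged 6516 ± 1815 (SD, n = 20 cells) and 6078 ± 1299 (SD, n = 22 cells), and 5993 and 5591 once every cell was thinned to 250000 reads. Calb2-positive cells were therefore the deeper and richer arm on average, with ranges that overlapped almost entirely.

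Calb2 lies on chromosome 8 (110137502 to 110168210, minus strand, GRCm38). Counts in the Calb2-positive cells ran from 11 to 1261 with a median of 212.5, or 5.21, 225 and 957 CPM (counts scaled to the same library total in every cell) at the lowest, median and highest cell. Just inside the limit lay 4 cells with 11, 13, 24 and 27 counts, and the other 16 had at least 32. Just outside lay the 22 cells at 0, where the 3 counts that a reading of 0 allows corresponded to 1.01 to 9.36 CPM. The lowest positive cell thus lay inside the range that a 0 could hide in the shallowest negative cells. All 20 stayed positive at 250000 reads. These values define the arms and were not tested.

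**Figure D1:**
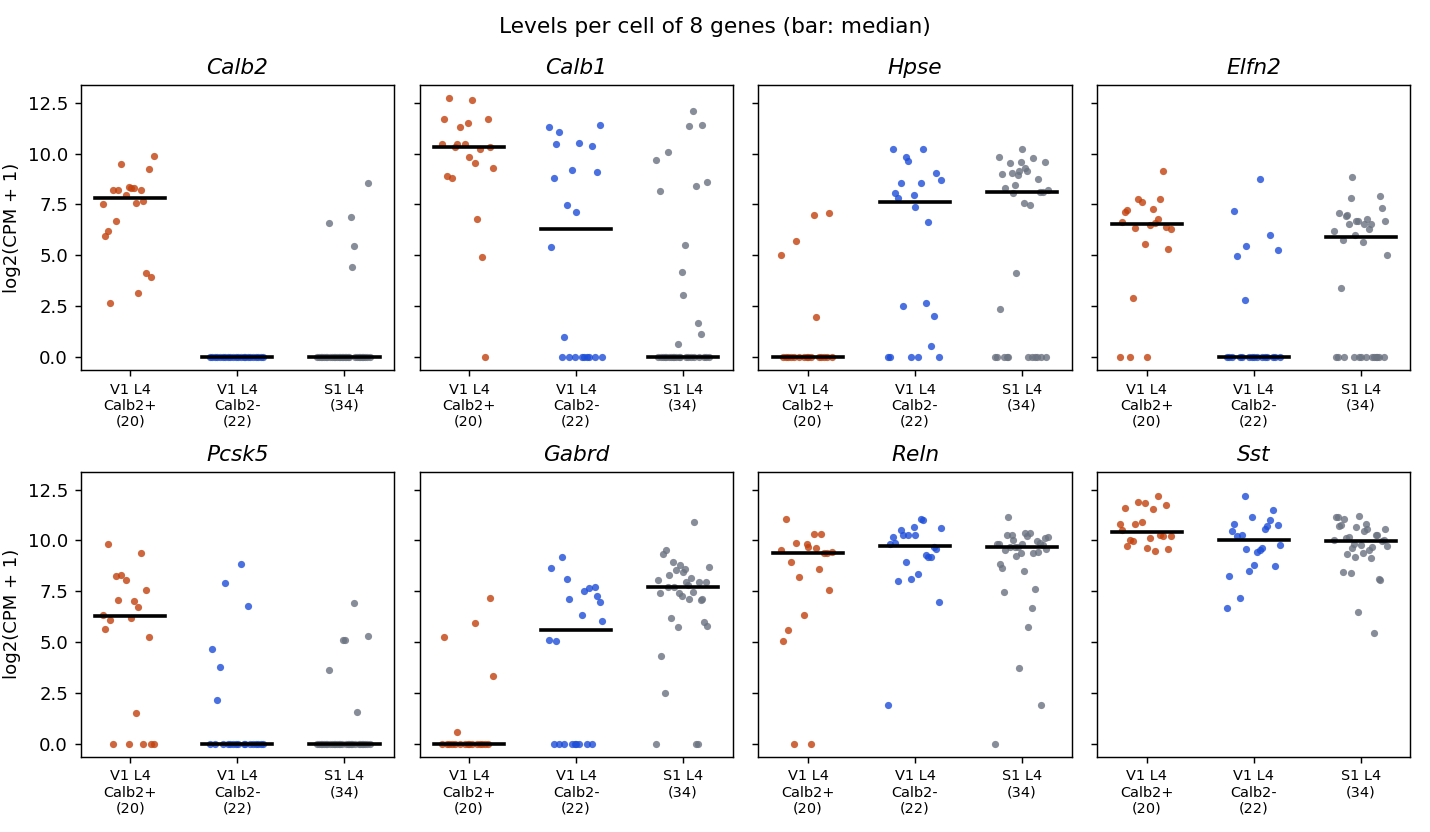
Levels of 8 genes in log2(CPM + 1) in 20 Calb2-positive and 22 Calb2-negative V1 L4 cells and in 34 S1 L4 cells, 1 point per cell, with a bar at the median. Calb1, Elfn2 and Pcsk5 had their higher medians in the Calb2-positive arm, Hpse and Gabrd had a median of 0 there, and Sst had medians of 10.39 and 9.99 in the 2 arms.

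Among genes with the same sign on each recording day used, Calb1 showed the largest difference toward the Calb2-positive cells and Hpse the largest toward the Calb2-negative cells. Differences are given as the mean of log2(CPM + 1) in Calb2-positive cells minus that in Calb2-negative cells. A step of 1 unit is close to 2-fold in CPM for well detected genes and more than that for genes near 0. Genes entered with at least 32 counts in at least 10 of the 42 cells, which left 7404. A gene counted as past the limit when its difference was at least 1 with the same sign on each of days 2, 7 and 8.

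Calb1 (chromosome 4, 15881264 to 15908064, plus strand) was read in 19 of 20 Calb2-positive cells, or 95%, and in 13 of 22 Calb2-negative cells, or 59.1%. The 95% Clopper-Pearson intervals, which cover counting error only, were 75.1 to 99.9% and 36.4 to 79.3%. In log2(CPM + 1) the lowest, median and highest levels were 0, 10.32 and 12.74 in Calb2-positive cells and 0, 6.27 and 11.40 in Calb2-negative cells. The groups overlapped over most of their range, and 5 Calb2-positive cells lay above every Calb2-negative cell. The means were 9.59 ± 2.92 and 5.14 ± 4.91 (SD over cells), a difference of 4.45. Within days it was 8.58, 1.30 and 5.92, an SD of 3.68 over 3 days, so day 7 held a far smaller difference than the other two.

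Hpse (chromosome 5, 100679484 to 100719716, minus strand) ran the other way. It was read in 5 of 20 Calb2-positive cells (25%, 8.66 to 49.1%) and in 17 of 22 Calb2-negative cells (77.3%, 54.6 to 92.2%). Its lowest, median and highest levels in log2(CPM + 1) were 0, 0 and 7.09 against 0, 7.60 and 10.25. No Calb2-positive cell reached the median of the Calb2-negative cells, but 5 Calb2-negative cells were at 0 as well. The means were 1.34 ± 2.56 and 5.47 ± 4.08, a difference of -4.13, with -5.12, -2.78 and -6.30 on days 2, 7 and 8 (SD 1.79). The differences in the separate series were -3.89 and -4.24, each larger than the SD over days.

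Reads of Calb2 and Hpse divided the 42 cells into 15 with Calb2 alone, 17 with Hpse alone, 5 with both and 5 with neither. Calb1 was read in 14 of 15 cells with Calb2 alone, in 8 of 17 with Hpse alone, in 5 of 5 with both and in 5 of 5 with neither. Its mean level was 9.62 ± 3.29, 3.85 ± 4.72, 9.52 ± 1.58 and 9.55 ± 2.49 in that order. In the Hpse-only cells Calb1 was thus split, with 9 cells at 0 and the other 8 at up to 11.08. The cells without either read had Calb1 at about the level of the Calb2-positive ones. Put the other way, 9 of the 10 cells without Calb1 had Hpse reads, and the tenth had a Calb2 read. In some of these 9, from day 2, the Hpse count was only 3, which a reading of 0 also allows. Called as without Hpse, they would join the cells with neither read, and not all of those would then hold Calb1. Hpse-only cells of day 7 with 1 and 5 Hpse counts both had a Calb1 read. The split of Calb1 over the groups thus depends in part on how low Hpse counts are called.

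The 5 cells with both reads came from days 1, 2, 7 and 8. In log2(CPM + 1) they held Calb2 at 7.53, 7.59, 3.17, 8.19 and 3.93, Hpse at 5.02, 6.96, 1.97, 5.69 and 7.09, and Calb1 at 10.48, 9.51, 6.78, 10.48 and 10.32, cell by cell. In 1 of the 5 both readings were low (11 and 4 counts), while another held 524 counts of Calb2 and 338 of Hpse. Their median total count was 1898995, against 1247233 in cells with Calb2 alone and 911838 in cells with Hpse alone. The part of this depth, or of RNA from a neighbouring cell, in the double readings was not tested.

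**Figure D2:**
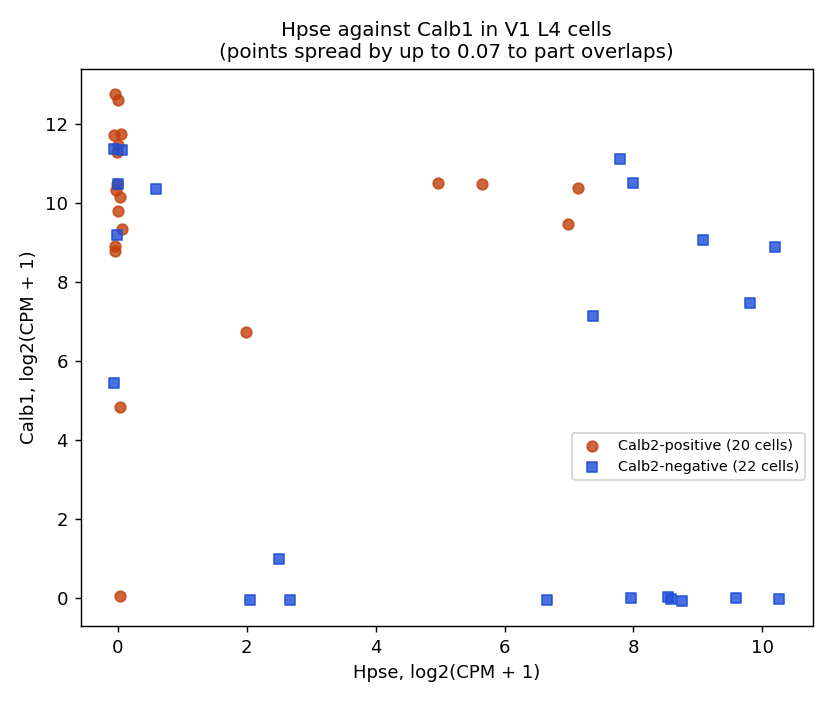
Calb1 against Hpse, both in log2(CPM + 1), in 42 V1 L4 cells, with circles for the 20 Calb2-positive and squares for the 22 Calb2-negative cells. Calb2-positive cells lie along the left edge, with Hpse at 0 in 15 of 20, and Calb2-negative cells with Hpse reads split into 8 with and 9 without Calb1.

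Over all genes the Calb2-positive cells read higher. The median difference over the 7404 genes was 0.25, and 0.24 at 250000 reads per cell. It was 0.55 in the first series and -0.03 in the second. By the rule above, 745 genes (10.1%) were higher and 330 (4.46%) were lower in the Calb2-positive cells, so 69.3% of these were higher (48.1% in the second series alone). With every difference taken relative to the median over genes, the counts were 533 and 508, or 51.2% higher. Without the requirement on days, 2070 genes (28%) differed by at least 1 either way. No shuffled arms were drawn, so these shares describe the cells and are no measure of how many genes differ between the arms.

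The other genes with the 10 largest differences toward the Calb2-positive cells were Elfn2, Pcsk5, Vbp1, Lrrc41, Zscan18, Fam168b, Smim14, Cipc and Pak3, with differences between 3.08 and 3.83. They were chosen by this contrast, and their values are a description. Elfn2 codes for a synaptic leucine-rich repeat protein that binds metabotropic glutamate receptors. Its lowest, median and highest levels were 0, 6.54 and 9.17 in Calb2-positive cells and 0, 0 and 8.77 in Calb2-negative cells, with reads in 17 of 20 and 7 of 22. Most positive cells therefore lay above most negative ones, with overlap at both ends. Its difference of 3.83 came with 6.0, 5.70 and 2.55 within days (SD 1.91).

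Pcsk5, which codes for a proprotein convertase that cuts precursors of secreted proteins, was read in 15 and 6 cells. Its levels were 0, 6.28 and 9.84 in Calb2-positive and 0, 0 and 8.85 in Calb2-negative cells, and the arms overlapped. The difference was 3.61, with 4.35, 4.67 and 2.64 within days (SD 1.09). Vbp1, which codes for a prefoldin subunit, differed by 3.60 (within days 4.94, 3.21 and 1.83), and Pak3, which codes for a p21-activated kinase, by 3.08 (3.40, 0.23 and 3.96). Zscan18, a zinc finger gene, and Pak3 had almost no difference on day 7 (0.05 and 0.23). Cipc, whose product represses the clock protein CLOCK, differed by 3.09. The exons of Lrrc41 share 1184 bases with those of Rad54l on the other strand, and those of Fam168b share 91 bases with Arhgef4. Smart-seq2 libraries do not mark the strand, so reads there cannot be assigned to 1 of the pair.

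After Hpse, the genes with the largest differences toward the Calb2-negative cells were Htra1, Tmem18, Prpf3, Extl1, Wdr91, Rfng, Gabrd, Gfpt2 and Gpr22, with differences from -3.36 to -2.94. Gabrd codes for the delta subunit of GABA-A receptors, which sits mostly outside synapses. It was read in 5 of 20 Calb2-positive and 13 of 22 Calb2-negative cells, with levels of 0, 0 and 7.16 and of 0, 5.57 and 9.17. The upper part of its range was held by Calb2-negative cells, and 9 of these were at 0. The difference of -3.10 came with -2.38, -2.17 and -3.39 within days (SD 0.65).

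Htra1, which codes for a secreted serine protease, was read in 4 and 13 cells and differed by -3.36 (within days -3.48, -0.93 and -5.55). Extl1, which codes for a glycosyltransferase of the heparan sulfate pathway, was read in 4 and 12 cells and differed by -3.24 (-2.28, -4.48 and -2.26). Rfng codes for a fringe glycosyltransferase that modifies Notch, and Gfpt2 for an enzyme that starts the hexosamine pathway. Rfng was read in 12 of 20 and in 21 of 22 cells (difference -3.12), and Gfpt2 in 8 and 15 (difference -3.07, within days -3.85, -3.79 and -3.41). Prpf3 codes for a splicing factor and differed by -3.29, with -2.87, -4.28 and -4.31 within days. Gpr22, an orphan receptor gene, was close to 0 on day 2 (-0.29).

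**Figure D3:**
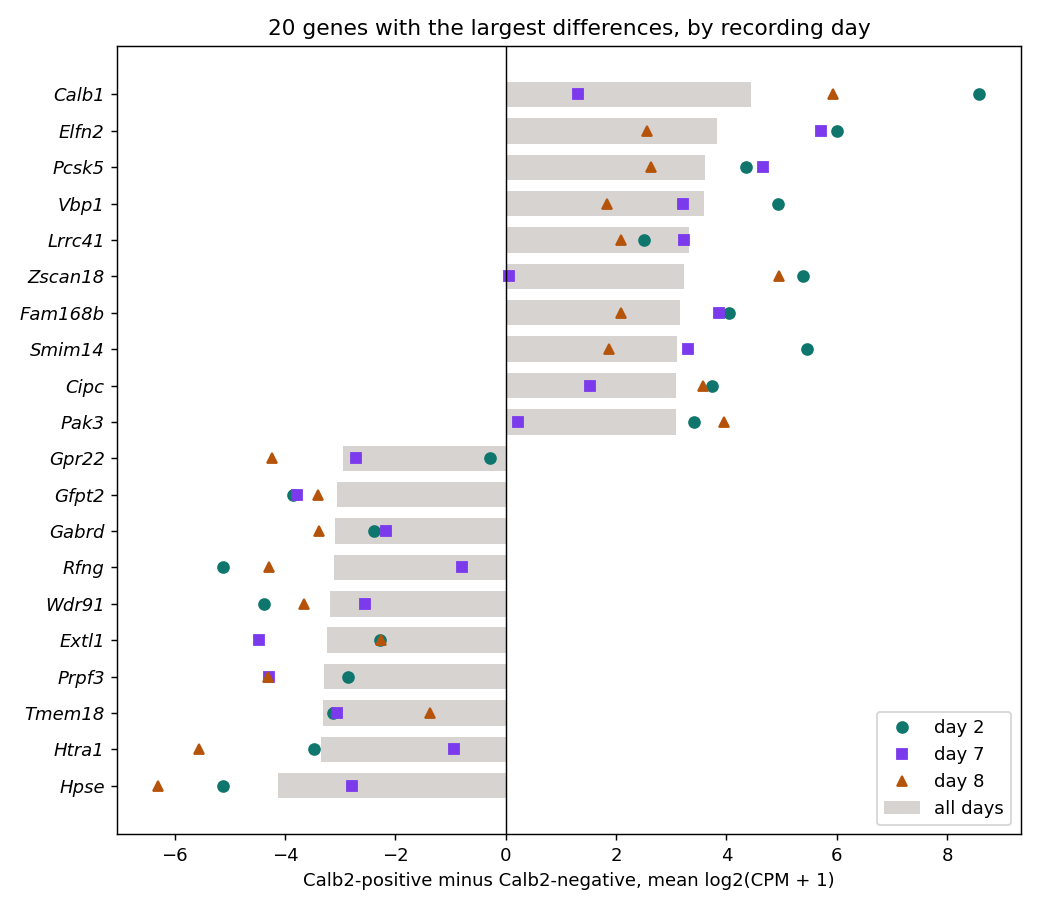
Difference in mean log2(CPM + 1), Calb2-positive minus Calb2-negative, of the 20 leading genes, with bars over all cells and symbols for days 2, 7 and 8. The sign on each of these days was part of how the genes were chosen, and the spread runs from 0.05 to 5.38 for Zscan18 and from -3.85 to -3.41 for Gfpt2.

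The promoters of Hpse, Elfn2 and Pcsk5 are shown because these 3 genes had large differences in both recording series and stand in the promoter table. The table, from RefSeq on GRCm38.p6, held 17 of the 20 leading genes, and Calb1 and Calb2 are not in it. Each sequence is the 250 bases before the start of the gene, 5′ to 3′ on its own strand, with CpG dinucleotides in capitals. Hpse lies at chr5:100719717-100719966, Elfn2 at chr15:78718772-78719021 and Pcsk5 at chr19:17837633-17837882, all on the minus strand.
Hpse: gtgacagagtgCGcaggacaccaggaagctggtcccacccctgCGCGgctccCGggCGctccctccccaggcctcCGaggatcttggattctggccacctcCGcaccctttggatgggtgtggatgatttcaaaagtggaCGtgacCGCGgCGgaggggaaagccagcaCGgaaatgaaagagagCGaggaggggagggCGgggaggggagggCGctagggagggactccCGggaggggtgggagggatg
Elfn2: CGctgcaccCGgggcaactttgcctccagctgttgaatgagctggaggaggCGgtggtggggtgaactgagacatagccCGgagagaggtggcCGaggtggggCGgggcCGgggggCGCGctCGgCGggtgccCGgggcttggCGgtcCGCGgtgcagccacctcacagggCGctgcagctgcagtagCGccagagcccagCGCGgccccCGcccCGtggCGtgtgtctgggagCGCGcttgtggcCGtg
Pcsk5: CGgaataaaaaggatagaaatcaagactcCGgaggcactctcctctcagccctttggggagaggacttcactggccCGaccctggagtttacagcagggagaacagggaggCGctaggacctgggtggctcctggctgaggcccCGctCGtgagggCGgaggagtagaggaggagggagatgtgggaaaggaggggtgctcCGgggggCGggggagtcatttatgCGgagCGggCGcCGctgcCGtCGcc
The windows held 16, 25 and 15 CpG dinucleotides and 66.8, 73.6 and 64.0% G and C, against medians of 6 and 52.4% over 32851 windows of the table. None held the TATA box letters TATAAA on either strand, which 12.4% of all windows held. The same was true of the CCAAT box (CCAAT, in 33.8% of windows) and of the cAMP response element (TGACGTCA, in 1.55%). This says only that these letters are not in the windows.

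The names of SOM+ types gave 3 genes past the filter beside Calb2. Eya1, which codes for a transcriptional coactivator, was read in 12 of 20 and 7 of 22 cells and was higher by 2.26 (within days 2.35, 3.53 and 2.08). Cbln4, which codes for a secreted synapse organizer and shares a type name with Hpse, was read in 17 of 20 and 11 of 22 cells. Its levels were 0, 8.09 and 9.85 against 0, 3.10 and 10.61, and the arms overlapped. Its mean difference of 2.76 had the sign of Calb1, not that of Hpse, but the days gave -1.86, 4.58 and 3.25 (SD 3.40), a spread larger than the difference. Pdlim5 was read in 9 and 4 cells and was below the filter. Sst itself was at 10.65 ± 0.87 and 9.80 ± 1.36, a difference of 0.85 with 1.31, 0.88 and -0.12 within days.

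Of 17 general genes of interneurons from the medial ganglionic eminence, where SOM+ cells arise, 15 passed the filter and 0 were past the limit either way, beside 10.1% higher and 4.46% lower over all genes. Their median difference was 0.07, beside 0.25 over all genes. Gad1 and Gad2 (the enzymes that make GABA) differed by 0.59 and 0.78, and Lhx6 (a transcription factor of these lineages) by -0.64. Of 15 genes listed for the VIP and caudal classes, 4 passed the filter, with 0 higher and 1 lower (median -0.46). Several genes of the list were read in few or no cells. Vip was read in 1 Calb2-positive cell, with 1 count, and in 0 Calb2-negative cells. Sp8 and Ndnf had no read in the 42 cells, Htr3a had 1 count in all, and Prox1 (97.2 CPM) and Adarb2 (21.5 CPM) were each read in 1 cell. Others were read in many cells, Npas1 in 10 of 20 and 15 of 22, Cnr1 in 12 and 13 and Igf1 in 14 and 16, and Cxcl14 was read in 1 Calb2-positive and 9 Calb2-negative cells. Reln, which is on that list but also expressed in many SOM+ cells, was read in 18 of 20 and 22 of 22 cells and was lower in Calb2-positive cells, with a difference of -1.32 and -1.87, -1.37 and -1.76 within days (SD 0.26), but -0.37 as a difference of medians.

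Among calcium-binding proteins, 2 of 11 genes past the filter were higher in Calb2-positive cells, Calb1 and Kcnip2 (a calcium sensor of Kv4 channels, difference 1.42), and 0 were lower, beside 10.1 and 4.46% of all genes. Of 3 neuropeptide genes past the filter, Npy and Crhbp (a binding protein of the stress peptide CRH) were higher by 1.06 and 1.23. Both were read in nearly every cell of both arms, and they had 0.65 and 0.61 without day 2. Pdyn, the remaining gene, differed by -1.09, with 0.71, -2.04 and -3.66 on days 2, 7 and 8.

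Of 21 genes of adhesion molecules and synapse organizers past the filter, 7 were higher and 4 were lower, beside 10.1 and 4.46% of all genes. No test was made of this difference, and the list was chosen with earlier results of these data known. Higher were the neuroligins Nlgn1 and Nlgn3 (1.47 and 1.38), the cadherins Cdh4, Cdh10 and Cdh13 (2.11, 1.75 and 1.21), the contactin Cntn3 (1.70) and Nell1 (3.06), which codes for a secreted ligand. Lower were Cdh7 (-2.37), Cntn5 (-1.12), the neurexin family gene Cntnap2 (-1.60) and Reln. Members of 1 family thus lay on both sides. Nell1 was read in 18 of 20 and 11 of 22 cells, with 4.61 in the first and 1.54 in the second series. Cdh13 had 2.34 and 0.17 in the separate series.

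GABA-A receptor subunit genes lay on both sides. Of 8 past the filter, 1 was higher and 2 were lower in Calb2-positive cells, among them Gabra3 (1.66) and Gabrd (-3.10). Gabra2 and Gabrb1 had differences of 1.84 and 1.68, without the same sign on each day. Of 16 glutamate receptor genes, 2 were higher and 0 were lower, beside the same 10.1 and 4.46%. These were Grm5, the gene of the metabotropic receptor mGluR5, and Grik2, a kainate receptor subunit. Grm5 was read in 20 of 20 and 16 of 22 cells at 7.74 ± 1.53 and 4.81 ± 3.48, a difference of 2.93 with 2.09, 3.60 and 4.22 within days (SD 1.09). Grik2 differed by 1.63. Of 8 neuromodulator receptor genes past the filter, 0 were higher and 1 was lower, beside 10.1 and 4.46% of all genes. The lower one was Chrna4 (a nicotinic receptor subunit, -2.36), with -3.81 in the first and -0.92 in the second series.

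Ion channel genes past the limit also have 10.1 and 4.46% of all genes as their background. Of 19 potassium channel genes, 2 were higher, among them Kcnj9 (a G protein-gated inward rectifier, 2.03), and 2 were lower, the leak channel genes Kcnk1 (-2.24) and Kcnk3 (-1.16). Of 19 sodium, calcium and HCN channel genes, Cacnb4 (1.25, but 0.35 without the cells high in glial genes) was higher and Cacna1e (-1.16) was lower. Cacna1e had -0.41 in the second series. The 3 genes of the fast-spiking (PV) list past the filter gave 0 either way, with a median of -0.02. Among 11 immediate early genes, 2 were higher and 0 were lower, beside the same 10.1 and 4.46% of all genes. These were Npas4 (1.16, but 0.31 without day 7) and Ier2 (1.27, but 0.61 with a pseudocount of 10). Fos, Arc and Jun differed by 0.08, 0.12 and 0.12. Of the 19 list genes past the limit that were recomputed and are not among the 20 leading genes, 12 came under a difference of 1 in at least 1 alternative, with no change of sign.

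**Figure D4:**
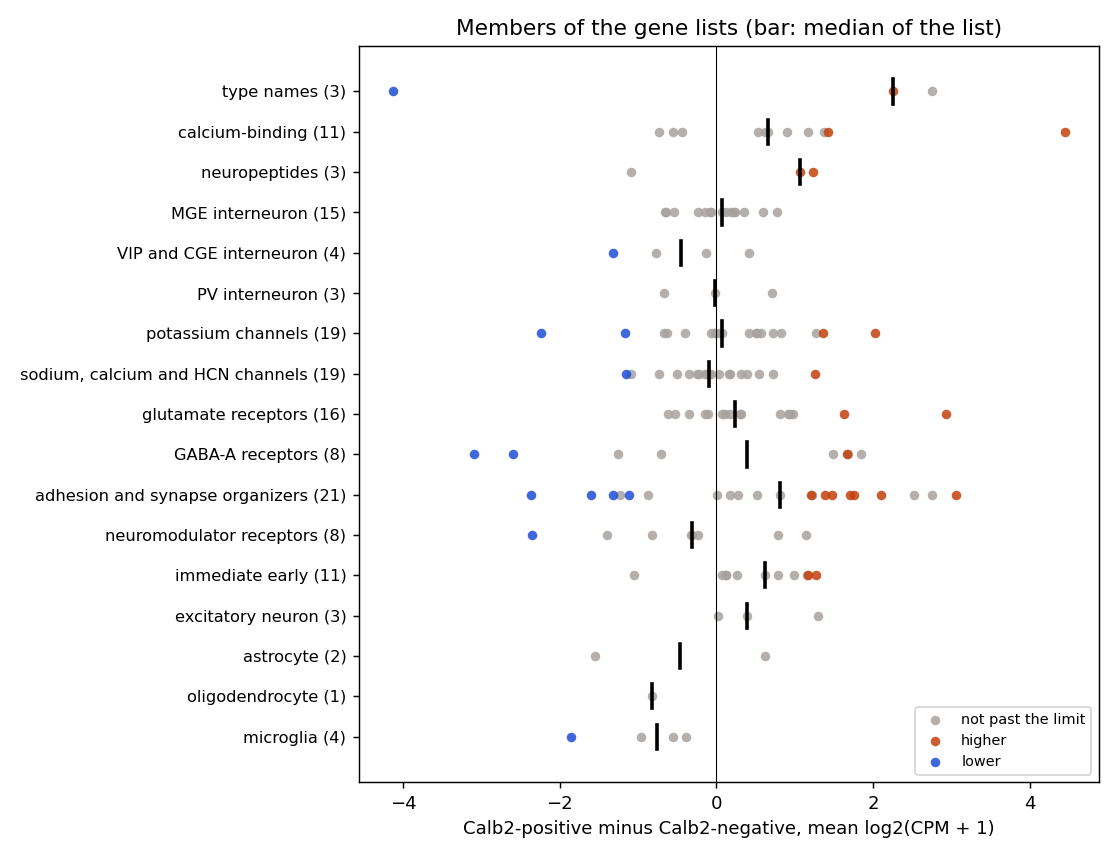
Difference in mean log2(CPM + 1), Calb2-positive minus Calb2-negative, of each list member past the filter, 1 point per gene, with the number of genes in brackets, bars at the list medians and color for genes past the limit. The adhesion list spreads from -2.37 to 3.06 and the list for interneurons of the medial ganglionic eminence from -0.66 to 0.78.

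Genes of other cells were read in both arms. The summed astrocyte list had a median of 114.6 CPM (0 to 1719) in Calb2-positive and 196 CPM (0 to 10322) in Calb2-negative cells. The oligodendrocyte list had 141.7 (0 to 3717) and 189 (0 to 2520), and the microglia list 29.5 (0 to 1481) and 148.4 (0 to 1980). C1qb, a complement gene of microglia, was past the limit at -1.85. The defining markers were rare, with Aqp4 read in 0 and 2 cells, Mog in 1 and 0, Tmem119 in 2 and 0, and Cldn5 in 0 and 0. Their part in the other differences was not tested. Without the 6 Calb2-positive and 8 Calb2-negative cells over 1000 CPM of these lists, each of the 20 leading genes kept its sign and a size of at least 1. These genes were picked for large differences over a set that holds the remaining cells, so this does not measure the part of glial RNA. The excitatory list (3 of 8 genes past the filter) had 0 past the limit.

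The separate recording series share no cell, so each served to describe genes ranked on the other. Of the 10 genes with the largest difference toward Calb2-positive cells in the first series, 7 were above 0 in the second, beside 48.8% of all genes, and 5 passed 1, beside 20%. Calb1 led the first series with 5.47 and had 3.27 in the second. Of the 10 largest toward Calb2-negative cells, 8 were below 0 in the second series, beside 51.2% of all genes, and 7 passed -1, beside 20.8%. These included Tmem18, Htra1, Hpse and Gabrd, with -2.37, -2.89, -4.24 and -2.66 there.

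Ranked on the second series, 8 of 10 higher genes were above 0 in the first, beside 66.5% of all genes, but 3 passed 1, beside 36.2%. Elfn2 was among them, with 4.33 and 3.46. Of the 10 lower genes, 6 were below 0 in the first series, beside 33.5%, and 5 passed -1, beside 11.7%. Hpse was the 1 gene among the 10 lower of both series. Across all 7404 genes, which share cells, depth and batch within a series and are not independent, Pearson's r between the series was 0.067, and 51.4% of genes had the same sign. About as many genes thus had the opposite sign as the same sign.

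**Figure D5:**
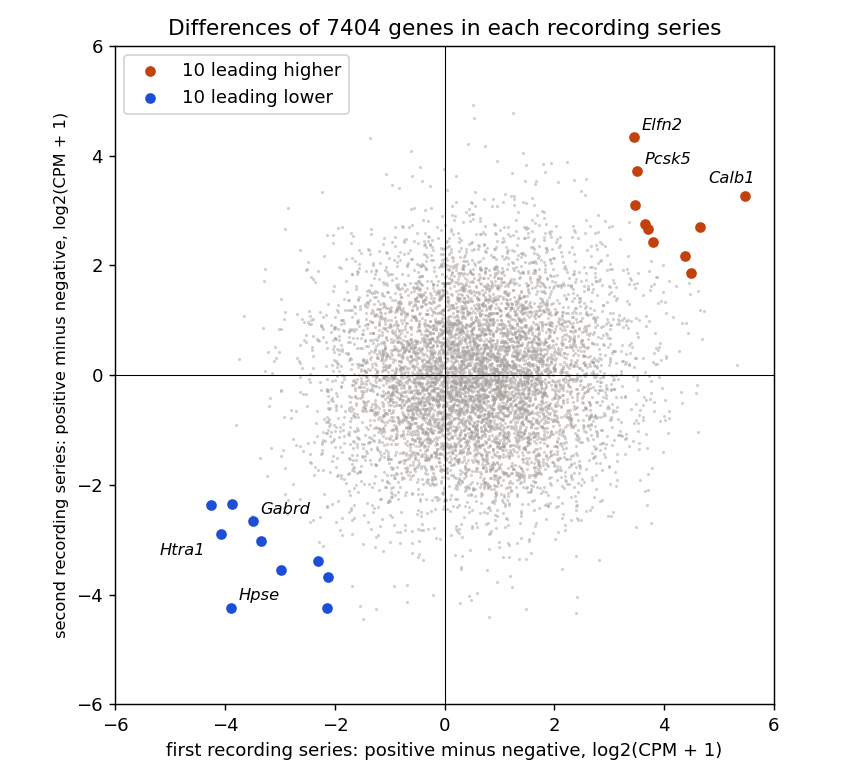
Difference in mean log2(CPM + 1), Calb2-positive minus Calb2-negative, of 7404 genes in the first (11 and 10 cells) and second (9 and 12 cells) recording series, 1 gray point per gene. The colored points are the 20 leading genes, which were chosen over both series and so lie at the corners, while the gray cloud has an r of 0.067.

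Calb2 was also read in cells outside V1 L4. It was found in 20 of 42 V1 L4 cells (47.6%, 32 to 63.6%), 5 of 34 S1 L4 cells (14.7%, 4.95 to 31.1%), 3 of 17 V1 L5 cells (17.6%, 3.80 to 43.4%) and 0 of 16 S1 L5 cells, where the same interval reached 20.6% and 3 cells of 16, the limit taken here for a count of 0, are 18.75%. Each group is 1 sample, so these intervals cover counting error over its cells and the shares were not compared by a test.

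The 5 Calb2-positive S1 L4 cells carried Calb1 at 11.35, 8.59, 0, 10.06 and 12.12 and Hpse at 0, 0, 7.46, 0 and 0 in log2(CPM + 1), cell by cell. The 1 cell with Hpse was thus the 1 without Calb1. Their mean Hpse level was 1.49 and that of the 29 Calb2-negative S1 L4 cells 6.39, a difference of -4.90, and the Calb1 means were 8.42 and 1.86, a difference of 6.57. Elfn2 was read in 5 of 5 and 16 of 29 of them. Gabrd differed from the V1 pattern, with reads in 5 of 5 and 26 of 29 cells and means of 7.26 and 6.84.

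These 5 cells had more detected genes (8188 against 5963 on average), and the median difference over genes was 1.10 in S1 L4. Above that median lay 9 of the 10 leading higher genes, and below it 6 of the 10 lower ones. Without that reference, 10 of the 10 higher genes were above 0, beside 81.2% of all genes, and 4 of the 10 lower genes were below 0, beside 18.8%. In V1 L5, with 3 Calb2-positive cells against 14, Calb1 again differed by 5.87, but Hpse by 3.17 in the other direction, as 2 of the 3 had Hpse reads. There 5 of the 10 higher genes lay above the median over genes and 6 of the 10 lower ones below it. With 5 and 3 cells, these values rest on single cells.

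Neighbours in expression were counted as a further description. For each V1 L4 cell the 5 most correlated V1 L4 cells of other recording days were taken, on 999 variable genes without Calb2. Of the neighbours of Calb2-positive cells, 74.0% were themselves Calb2-positive (SD 16 over cells), beside 47.5% of the eligible cells. For Calb2-negative cells the share was 54.5%, beside 48.1%. When S1 L4 cells were admitted as neighbours, 17% of those of Calb2-positive and 32.7% of those of Calb2-negative V1 L4 cells came from S1 L4, beside 47.1% and 46.9% of the eligible cells. At 250000 reads per cell the 4 shares were 64.0, 44.5, 15 and 39.1%, and without Hpse and Calb1 they were 73.0, 55.5, 20 and 34.5%. With neighbours from the same recording series alone, 60% of the neighbours of Calb2-positive and 52.7% of those of Calb2-negative cells were Calb2-positive, beside 47.4 and 47.2% of the eligible cells. With 10 neighbours the shares were 63.0 and 56.8%, and with Spearman's rho 73.0 and 65.5%. Neighbours of Calb2-negative cells were thus also Calb2-positive more often than the eligible cells in these settings, and less often only at 250000 reads per cell, where detected genes still averaged 5993 and 5591 in the 2 arms. The part of detected genes in these shares was not tested.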

How the data were processed

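The RNA of 118 patched cells was sequenced, of which 109 were kept, and the submitters' processing notes name bcl2fastq 2.20, STAR 2.4.2a and the mm10 build. The authors deposited read counts per gene without normalization, and RPKM values, which were used here to check the Calb2 arms and as an alternative scale. The counting strand is not given in the sources used here. Counts of entries with the same symbol were summed and scaled to CPM, and log2(CPM + 1) was used with a pseudocount of 1. Because the labels name no animal, each area and layer was 1 sample, and no p-value or standard error was computed from cells.

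The members and lists were chosen with earlier results of these data known. Genes were named by this rule: Calb2, Sst, Hpse, Cbln4, Pdlim5 and Calb1, the 10 largest differences each way with the same sign on each day used, up to 4 members of each of 18 gene lists with the largest differences, and the 10 largest each way in each series. Members past the limit beyond the 4 of a list, the caudal class genes and the glial markers, and the genes of a list given for comparison, were named after their values were seen. Thinning drew 250000 reads per cell with seed 1. Variable genes followed the rule of the study (1000 genes, slope 1.5, offset 0.02). A filter of 32 counts in 10 cells lets in genes high in 1 arm alone, so counts over a list describe the genes that passed. Coordinates are from GENCODE M21. The functions were tested on simulated data. edgeR 4.0.16 in R 4.3.3 gave the TMM scaling used as an alternative, and all else ran in Python 3.11.15 with SciPy 1.17.1 for intervals, pandas 2.3.3, NumPy 2.4.6 and matplotlib 3.10.9. Electrophysiology and morphology were not analysed here. Some results under the rule for named genes are not reported here.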

Additional observations from a re-analysis of the deposited data

Results flagged for a closer look

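Dixon's criterion was applied gene by gene in groups of 4 to 10 cells. A highest or lowest cell that stood apart from the rest was marked in 5 of 25 pairs of a gene and a group. Pairs of the same group share their cells, so the marks are not independent. Chance marks about 1 in 20 where values spread normally, which these do not. Among the 5 Calb2-positive S1 L4 cells, 1 cell had Hpse at 7.46 in log2(CPM + 1) and the other 4 were at 0. Among the 5 V1 L4 cells with both Calb2 and Hpse reads, the lowest cell stood apart for Calb1, Elfn2 and Reln. It was a different cell for each gene, at 6.78 (day 7), 0 (day 1) and 7.56 (day 8) in that order. Among the 5 V1 L4 cells with neither read, 1 cell had Elfn2 at 5.27 and the other 4 were at 0. Each of these groups holds 5 cells, and where 4 of 5 are at 0 the criterion is met by any reading in the fifth.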

How the results depend on the processing

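Each of the 20 leading genes kept its sign and a size of at least 1 under all 27 alternatives (540 values, smallest size 1.47), and 51 of these values moved by more than the spread. The genes were picked for large differences, and 3 of the 27 alternatives (Calb2 counted from 10 reads and both other gene filters) left each of these values as it was, so that 480 values could differ. Setting the arms again after thinning gave the same 20 and 22 cells and so repeated the values of thinning alone. The 19 other list genes past the limit that were recomputed kept their sign, and 7 of them kept a size of at least 1 under all alternatives, among them Eya1, Grm5, Nell1 and Cdh7. Small values included 0.31 for Npas4 (without day 7), 0.35 for Cacnb4 (without the cells high in glial genes), -0.41 for Cacna1e (second series) and -0.37 for Reln (difference of medians).

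The shares of genes past the limit depended on the setting. The higher and lower shares of 10.1 and 4.46% became 3.75 and 1.70% with a pseudocount of 10, 5.76 and 2.66% with no filter on genes, 2.61 and 0.783% at a limit of 2, 33.9 and 10.7% in the first series alone, and 15.5 and 16.7% in the second series alone. The lower share was 7.12% with the mean of the within-day differences and 6.86% relative to the median over genes, a setting added after the data were seen, as were the settings on glial genes and on neighbours at 250000 reads or without Hpse and Calb1. When 1 recording day was left out, the higher share ran from 9.47 to 19.9% (19.9% without day 8, 15.8% without day 7) and the lower share from 4.47 to 9.01% (9.01% without day 2, 7.85% without day 7), where a sign had to hold on fewer days. The share of Calb2-positive cells with Calb1 was 100% in the first series and with Calb2 counted from 32 reads, and ran from 92.9 to 100% with 1 day left out.

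Depth limits the call of a negative cell, in which 3 counts of Calb2 correspond to at most 9.36 CPM. No test was made between the arms, and so none that paired them by recording day. Recording days held cells of both arms, and the differences within days are given in the text.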

Other observations

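In S1 L4, Hpse and Calb1 were both read in 6 of 34 cells, Hpse alone in 17, Calb1 alone in 8 and neither in 3, against 13, 9, 19 and 1 of the 42 V1 L4 cells. Gabrd was read in 2 of 15 V1 L4 cells with Calb2 alone, 10 of 17 with Hpse alone, 3 of 5 with both and 3 of 5 with neither. Cbln4 was read in 12 of 15, 9 of 17, 5 of 5 and 2 of 5 of these cells, and in the 5 cells with both reads its level was 7.92 to 8.45 in log2(CPM + 1), the narrowest range of Cbln4 among the 4 combinations. Elfn2 was read in 13 of 15, 6 of 17, 4 of 5 and 1 of 5. The part of depth, whose median was highest in the cells with both reads, was not tested.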
